A study of Arabidopsis thaliana with 8 samples.

Results

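The 10 genes described here make, regulate or break down indole glucosinolates, and were taken by locus identifier from the 28642 loci counted. They comprise the core enzymes CYP83B1, SUR1, UGT74B1 and SOT16, the transcription factors MYB34, MYB51 and MYB122, the side chain enzymes CYP81F2 and IGMT1, and the thioglucosidase PEN2. All 10 were found and all 10 passed the filter on low counts. Transcripts were measured in Arabidopsis thaliana (accession Landsberg erecta), in whole seedlings that were 14 days old. The 4 groups were smn2 -/- seedlings at 4 h and at 0 h of 0.1 µM flg22, the flagellin peptide that plants perceive, and wild type (WT) seedlings at 4 h and at 0 h, with 2 biological replicates in each. Because flg22 was given to every group and no seedlings mock-treated for 4 h were analysed here, a 4 h change combines flg22 with time of day and handling. Whole seedlings mix shoot and root, and in such bulk samples fewer cells of a type and less RNA per cell cannot be told apart.

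Indole glucosinolates are sulfur-rich defence compounds that plants of the mustard family make from tryptophan. CYP79B enzymes turn tryptophan into indole-3-acetaldoxime, CYP83B1 oxidises it, a glutathione conjugate is cleaved by SUR1, UGT74B1 adds glucose and sulfotransferases add sulfate. MYB34, MYB51 and MYB122 switch these genes on, CYP81F2 and the IGMT enzymes convert the product to its 4-methoxy form, and PEN2 hydrolyses that form in living cells. In this plant the pathway through CYP81F2 and PEN2 is known for its part in resistance to fungi and in callose deposition after flg22.

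The libraries held 6856882 to 15791296 gene reads, and each library is named by its replicate number, 910 or 918, which the file headers tie to 2 separate sequencing runs. HEN2, which background knowledge gives as the gene SMN2 and which encodes an RNA helicase of the nuclear exosome, had 11.9 and 15.1 CPM in 4 h smn2 seedlings and 10.6 and 9.71 CPM in 0 h smn2 seedlings, against 55.7 and 50.01 CPM in 4 h WT seedlings and 34.7 and 32.0 CPM in 0 h WT seedlings. CPM are counts per 1000000 gene reads after TMM scaling, and values are given for library 910 and then 918. The labels do not say where in the gene the smn2 lesion lies. The summed level of 5 shoot markers (RBCS1A, LHCB1.1, RCA, PSBP-1 and RBCS3B) was 4409 and 2190.2 CPM in 4 h smn2 seedlings and 7509.6 and 7403 CPM in 0 h smn2 seedlings, against 5245 and 2362 CPM in 4 h WT seedlings and 7328 and 7495 CPM in 0 h WT seedlings, with none at 0. LHCB1.1 stood at 220.5 and 160.0 CPM in the smn2 and WT 4 h libraries of run 918, against 1494 to 2372 CPM in the other 6. The summed level of 6 root markers (CASP1, COBL9, EXP7, IRT1, NRT2.1 and PHT1;1) was 90.0 and 64.8 CPM in 4 h smn2 seedlings and 105 and 99.98 CPM in 0 h smn2 seedlings, against 129 and 147 CPM in 4 h WT seedlings and 200.2 and 120.0 CPM in 0 h WT seedlings, and IRT1 was at 0 in both smn2 4 h libraries. IRT1 had at most 8 reads in any library and did not pass the filter on low counts. What part these marker differences had in the results below was not tested.

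Promoter sequences are shown first, and what part their motifs had in the changes below was not tested. The 250 bases before each RefSeq gene start (TAIR10.1) were searched on both strands for the W box, TTGACC or TTGACT, which WRKY transcription factors of immune responses bind. These are sequences of the reference genome, and they were not compared with those of Landsberg erecta, the accession measured here. In the lines below, W boxes are in capitals; a W box on the other strand reads GGTCAA or AGTCAA. CYP81F2, IGMT1 and PEN2 hold W boxes, and MYB51 is shown as one without a match.
CYP81F2, chr5:23187590-23187839, plus strand: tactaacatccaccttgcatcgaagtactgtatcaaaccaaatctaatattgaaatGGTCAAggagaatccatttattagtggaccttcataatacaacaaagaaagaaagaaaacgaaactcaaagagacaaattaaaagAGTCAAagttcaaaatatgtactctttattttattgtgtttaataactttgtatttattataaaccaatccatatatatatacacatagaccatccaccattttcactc
IGMT1, chr1:7388513-7388762, minus strand: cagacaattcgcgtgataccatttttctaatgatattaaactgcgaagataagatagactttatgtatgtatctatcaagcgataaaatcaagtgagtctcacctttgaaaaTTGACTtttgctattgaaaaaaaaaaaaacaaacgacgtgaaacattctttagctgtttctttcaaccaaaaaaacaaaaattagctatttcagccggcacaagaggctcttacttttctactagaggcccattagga
PEN2, chr2:18364402-18364651, plus strand: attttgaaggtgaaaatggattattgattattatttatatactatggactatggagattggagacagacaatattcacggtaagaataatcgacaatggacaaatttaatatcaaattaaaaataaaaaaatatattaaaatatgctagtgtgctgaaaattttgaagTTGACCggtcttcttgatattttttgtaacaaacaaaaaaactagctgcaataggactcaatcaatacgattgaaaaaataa
MYB51, chr1:6389149-6389398, plus strand: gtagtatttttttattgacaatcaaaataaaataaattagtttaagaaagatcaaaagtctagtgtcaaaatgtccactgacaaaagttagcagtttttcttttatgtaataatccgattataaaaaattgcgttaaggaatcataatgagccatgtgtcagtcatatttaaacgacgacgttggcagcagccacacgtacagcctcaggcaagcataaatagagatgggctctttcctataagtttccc

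A W box was found in 4 of the 10 promoters, against 28.5% of the 26709 promoters of the same length in the annotation. CYP81F2 had 2, the nearer ending 103 bases before the gene start. SUR1, IGMT1 and PEN2 had 1 each, ending 142, 132 and 76 bases before theirs. The G box CACGTG, which bHLH factors such as MYC2 bind, was found in the SUR1 promoter alone among the 10, against 6.58% of all promoters. An AC element, ACCTACC or ACCAACC, which MYB factors bind, was found in UGT74B1 and SOT16, against 3.81% of all promoters. None of the 3 motifs was found in the windows of CYP83B1, MYB34, MYB51 or MYB122. A match is a description of letters and not a bound site.

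**Figure D1:**
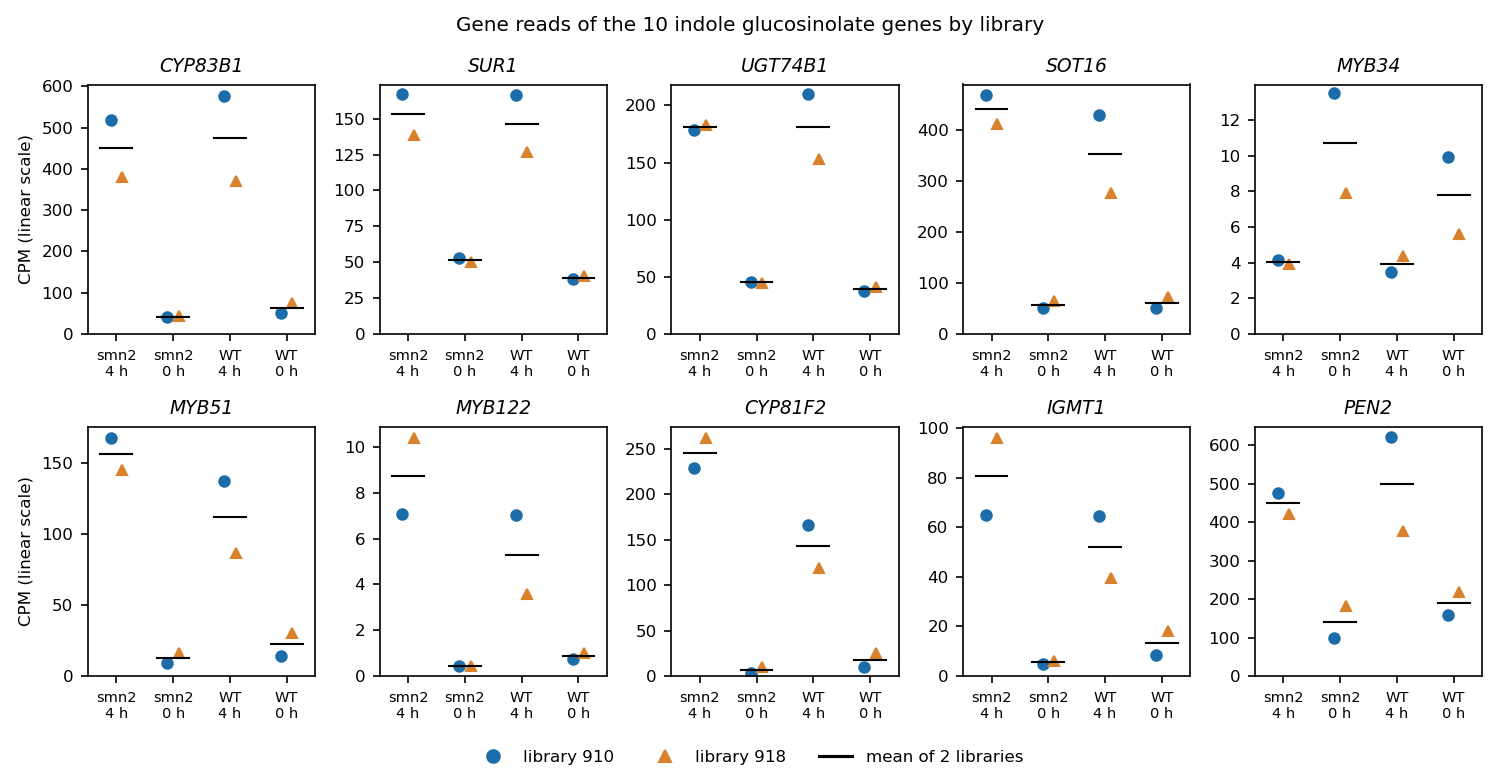
Gene reads of the 10 genes by library, in CPM on a linear axis, with 1 panel per gene and the groups smn2 4 h, smn2 0 h, WT 4 h and WT 0 h from left to right. Circles are run 910, triangles are run 918 and the line is the mean of 2 libraries. Both 4 h libraries stand above both 0 h libraries in either genotype for every gene but MYB34, where they stand below. How many of all loci are separated in this way was not counted.

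The first question was how the pathway changed after flg22 in each genotype. In smn2, 9 of the 10 genes rose at 4 h and MYB34 fell, where 12.6% of all 19649 loci tested rose and 8.88% fell (edgeR, adjusted p under 0.05). In WT the 9 genes other than MYB34 rose and none of the 10 fell by this test, against 10.1% and 6.56% of all loci. The 10 genes were chosen with earlier results of these data known, so the shares over all loci are set beside them as a description only. The median log2 change of the 10 genes was 3.17 in smn2 and 2.28 in WT, beside -0.04 and -0.01 over all loci. Their summed level was 2281 and 2053 CPM in 4 h smn2 seedlings and 321 and 423 CPM in 0 h smn2 seedlings, against 2383 and 1556 CPM in 4 h WT seedlings and 379 and 528 CPM in 0 h WT seedlings. Every called change had the same direction within each sequencing run, for 10 of 10 genes in smn2 and 9 of 9 in WT. This follows from the lack of overlap between the times in each of these genes, and is not separate support. The share of all loci without overlap between the times was not counted, so a lack of overlap here and below is a description only.

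Among the core enzymes, CYP83B1 (AT4G31500, TAIR10 chromosome 4, 15273471 to 15275310), the cytochrome P450 that commits indole-3-acetaldoxime to glucosinolates, had the largest log2 change of the 4 by point value in both genotypes. It had 518 and 381 CPM in 4 h smn2 seedlings and 41.4 and 43.2 CPM in 0 h smn2 seedlings, against 578 and 370.2 CPM in 4 h WT seedlings and 50.6 and 75.4 CPM in 0 h WT seedlings. All 4 libraries at 4 h were far above all 4 at 0 h, with no overlap. The log2 change (± SE) was 3.41 ± 0.32 in smn2 (edgeR adjusted p = 0.000174) and 2.91 ± 0.32 in WT (adjusted p = 0.000498).

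SOT16 (AT1G74100, chromosome 1, 27864345 to 27865694), the sulfotransferase of the last core step, had 468 and 412 CPM in 4 h smn2 seedlings and 50.5 and 64.8 CPM in 0 h smn2 seedlings, against 429 and 277 CPM in 4 h WT seedlings and 51.4 and 72.0 CPM in 0 h WT seedlings. The times did not overlap, and WT 4 h in run 918 was the lowest of the 4 h libraries. The log2 change was 2.93 ± 0.30 in smn2 (edgeR adjusted p = 0.000247) and 2.52 ± 0.29 in WT (adjusted p = 0.000708).

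SUR1 (AT2G20610, chromosome 2, 8877960 to 8880388), a carbon-sulfur lyase, and UGT74B1 (AT1G24100, chromosome 1, 8525435 to 8527087), a glucosyltransferase, serve aliphatic as well as indole glucosinolates. SUR1 had 167 and 139 CPM in 4 h smn2 seedlings and 52.9 and 50.2 CPM in 0 h smn2 seedlings, against 166 and 127 CPM in 4 h WT seedlings and 38.4 and 40.2 CPM in 0 h WT seedlings. UGT74B1 had 179 and 183 CPM in 4 h smn2 seedlings and 45.7 and 44.6 CPM in 0 h smn2 seedlings, against 210 and 153 CPM in 4 h WT seedlings and 37.3 and 40.8 CPM in 0 h WT seedlings. In both genes the 2 replicates of a 0 h group lay close together and the times did not overlap. SUR1 rose by a log2 of 1.57 ± 0.21 in smn2 (edgeR adjusted p = 0.000953) and 1.90 ± 0.21 in WT (adjusted p = 0.000614). UGT74B1 rose by 2.002 ± 0.216 in smn2 (adjusted p = 0.000317) and 2.21 ± 0.22 in WT (adjusted p = 0.000324), so that these 2 genes rose less than CYP83B1 and SOT16 by their point values in both genotypes; that order was not tested.

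The 3 MYB factors did not move together. MYB51 (AT1G18570, chromosome 1, 6389411 to 6391267) is known to regulate indole glucosinolate genes mainly in shoots and in response to flagellin, and MYB34 (AT5G60890, chromosome 5, 24494691 to 24496351) mainly in roots. MYB51 had 168 and 145 CPM in 4 h smn2 seedlings and 8.97 and 15.9 CPM in 0 h smn2 seedlings, against 137 and 86.8 CPM in 4 h WT seedlings and 14.3 and 30.4 CPM in 0 h WT seedlings. It rose by a log2 of 3.67 ± 0.43 in smn2 (edgeR adjusted p = 0.000447) and 2.34 ± 0.40 in WT (adjusted p = 0.00420). Its WT log2 change was 2.97 without the WT 0 h library of run 918, which was the higher of the 2.

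MYB34 had 4.13 and 3.90 CPM in 4 h smn2 seedlings and 13.5 and 7.89 CPM in 0 h smn2 seedlings, against 3.46 and 4.37 CPM in 4 h WT seedlings and 9.93 and 5.63 CPM in 0 h WT seedlings. In each genotype both 4 h libraries were below both 0 h libraries, and in each 0 h group the run 910 library was the higher. The log2 change was -1.43 ± 0.38 in smn2 (edgeR adjusted p = 0.0258), a called fall, and -1.01 ± 0.37 in WT (adjusted p = 0.0979), not called. The smn2 call rests on 24 to 161 reads a library and was lost when library 910 of smn2 at 4 h (adjusted p = 0.118), library 918 of smn2 at 4 h (0.123) or library 910 of smn2 at 0 h (0.164) was left out, and in a test against a fold of 1.5 (0.0872).

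MYB122 (AT1G74080, chromosome 1, 27855699 to 27857534), the third regulator of the group, was scarce at 0 h. It had 7.06 and 10.4 CPM in 4 h smn2 seedlings and 0.419 and 0.455 CPM in 0 h smn2 seedlings, against 7.03 and 3.57 CPM in 4 h WT seedlings and 0.752 and 0.988 CPM in 0 h WT seedlings. In reads, the smn2 0 h libraries held 5 and 3 and the WT 0 h libraries 14 and 10, close to the floor of 3 counts, so that the size of the change is less certain than its direction. The log2 change was 4.28 ± 0.53 in smn2 (edgeR adjusted p = 0.000595) and 2.64 ± 0.45 in WT (adjusted p = 0.00445), and 2.04 in WT without WT 4 h 910.

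CYP81F2 (AT5G57220, chromosome 5, 23187840 to 23189857), the cytochrome P450 that hydroxylates the indole ring on the way to the 4-methoxy compound, had the largest log2 change of the 10 genes in both genotypes by point value. It had 229 and 261 CPM in 4 h smn2 seedlings and 2.93 and 9.41 CPM in 0 h smn2 seedlings, against 166 and 118 CPM in 4 h WT seedlings and 10.1 and 25.6 CPM in 0 h WT seedlings. Both smn2 libraries were above both WT libraries at 4 h and below both at 0 h, and in each 0 h group the run 918 library was the higher. The log2 change was 5.38 ± 0.60 in smn2 (edgeR adjusted p = 0.000353) and 3.01 ± 0.52 in WT (adjusted p = 0.00458). Leaving out library 910 of smn2 at 0 h gave 4.70 in smn2, leaving out library 918 gave 6.38, and leaving out library 918 of WT at 0 h gave 3.82 in WT.

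IGMT1 (AT1G21100, chromosome 1, 7386839 to 7388428) methylates the hydroxyl group that CYP81F2 adds. It had 64.9 and 96.0 CPM in 4 h smn2 seedlings and 4.94 and 6.07 CPM in 0 h smn2 seedlings, against 64.5 and 39.4 CPM in 4 h WT seedlings and 8.32 and 18.2 CPM in 0 h WT seedlings. The times did not overlap, and at 4 h the genotypes were close together in run 910 and apart in run 918. The log2 change was 3.88 ± 0.43 in smn2 (edgeR adjusted p = 0.000341) and 1.99 ± 0.38 in WT (adjusted p = 0.00760). The WT call was lost without WT 4 h 910 (adjusted p = 0.0616), and the WT log2 change was 2.64 without WT 0 h 918.

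IGMT1 lies in a cluster with IGMT3, IGMT2 and IGMT4 on the minus strand of chromosome 1, and a read can fall where the copies are identical. Their last 60 coding bases, positions 1063 to 1122 from the start codon in the RefSeq models (TAIR10.1), are shown to make this visible, with capitals where a base differs from IGMT1. The sequences and the identities below are those of the reference genome, not compared with Landsberg erecta.
IGMT1: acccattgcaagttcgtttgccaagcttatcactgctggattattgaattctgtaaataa
IGMT2: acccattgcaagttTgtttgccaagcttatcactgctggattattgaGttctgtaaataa
IGMT3: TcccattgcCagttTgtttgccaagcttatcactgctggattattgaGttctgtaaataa
IGMT4: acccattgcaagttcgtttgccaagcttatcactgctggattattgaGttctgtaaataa

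Over the whole coding sequence IGMT1 was 92.5% identical to IGMT2 and 93.0% to IGMT3 and to IGMT4, while IGMT2 and IGMT3 were 97.4% identical and shared a run of 263 identical bases. The share of reads placed uniquely was 90.3% to 95.0% for IGMT1 and 94.4% to 97.6% for IGMT4, but 62.5% to 75.3% for IGMT2 and 64.4% to 72.7% for IGMT3, whose values are therefore uncertain. With uniquely placed reads alone, IGMT1 rose by a log2 of 3.89 ± 0.43 in smn2 (edgeR adjusted p = 0.000291) and 2.01 ± 0.39 in WT (adjusted p = 0.00684). IGMT3 rose in both genotypes, by a log2 of 3.08 ± 0.41 in smn2 (edgeR adjusted p = 0.000895) and 2.18 ± 0.40 in WT (adjusted p = 0.00568). IGMT2 had a log2 value of 1.93 ± 0.62 in smn2 (adjusted p = 0.0507) and 1.08 ± 0.60 in WT (0.258), and IGMT4 of 1.42 ± 0.57 (0.107) and 0.49 ± 0.56 (0.601), none of them called. With the run as a replicate block IGMT2 was called in smn2 (log2 2.15, adjusted p = 0.0108). In IGMT2 and IGMT4 the 0 h library of run 918 was well above that of run 910 in both genotypes: IGMT4 had 52.7 and 187 CPM in 0 h smn2 seedlings and 131 and 304 CPM in 0 h WT seedlings.

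PEN2 (AT2G44490, chromosome 2, 18364756 to 18367725), the thioglucosidase that starts the breakdown of indole glucosinolates in intact cells, rose least among the 9 genes in WT by point value. It had 475 and 421 CPM in 4 h smn2 seedlings and 99.7 and 181 CPM in 0 h smn2 seedlings, against 622 and 377 CPM in 4 h WT seedlings and 158 and 219 CPM in 0 h WT seedlings. The times did not overlap, and at 0 h the run 918 library was the higher in both genotypes. The log2 change was 1.68 ± 0.35 in smn2 (edgeR adjusted p = 0.00894) and 1.41 ± 0.35 in WT (adjusted p = 0.0233). The smn2 call was lost without smn2 4 h 910 (adjusted p = 0.0518). The WT call was lost when library 910 of either WT group was left out (adjusted p = 0.151 for 4 h and 0.153 for 0 h), against a fold of 1.5 (0.0842), and without both 4 h libraries of run 918 (0.0638).

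**Figure D2:**
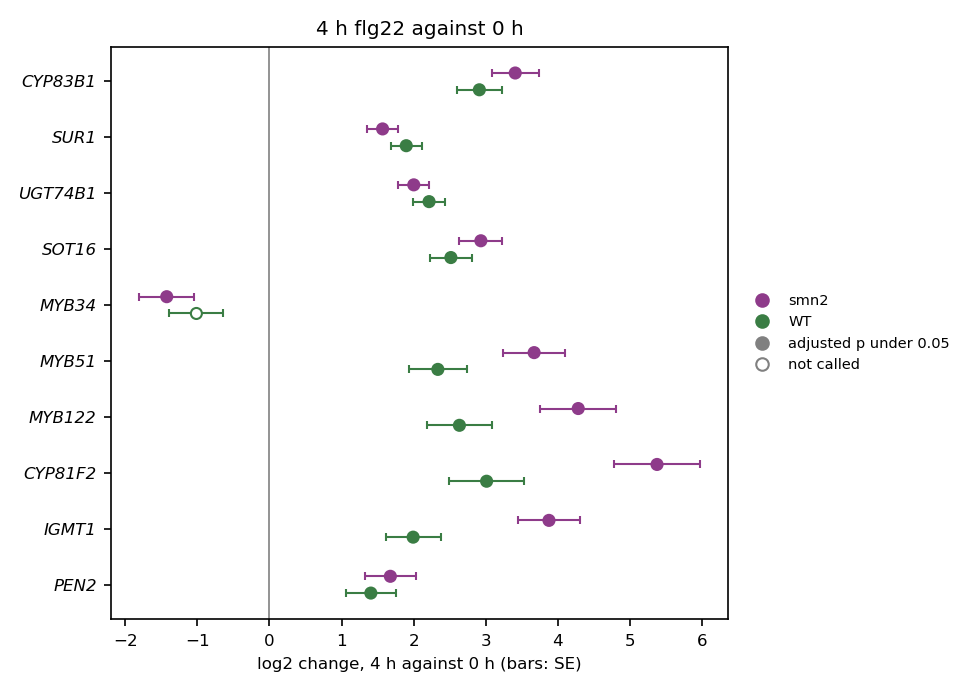
Log2 change at 4 h against 0 h of flg22 for the 10 genes, smn2 in purple above WT in green, with bars of 1 SE; filled points passed an edgeR adjusted p of 0.05. CYP81F2 lies farthest right in both genotypes, at 5.38 in smn2 and 3.01 in WT, and MYB34 is the 1 gene left of 0, open in WT.

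Levels were compared between genes as exon CPM per kilobase of exon. By the group mean PEN2 was highest at 0 h in both genotypes, at 69.2 in smn2 and 93.0 in WT, followed by SOT16 at 42.7 in smn2 and 45.7 in WT. At 4 h the 3 highest were SOT16, CYP83B1 and PEN2, at 326, 257 and 221 in smn2, and CYP83B1, SOT16 and PEN2, at 270.3, 261 and 247 in WT. Within smn2 at 4 h the ranges of CYP83B1 (218 to 295) and PEN2 (209 to 234) overlapped, and in WT at 4 h those of all 3 genes overlapped, so their order there is not separated from the spread. CYP81F2 was the fourth of the 10 genes in smn2 at 4 h, at 132 and 151, and the ninth in smn2 at 0 h, at 1.70 and 5.46, where it overlapped IGMT1 (3.51 and 4.39).

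MYB34 and MYB51 were set side by side on the same scale. MYB34 had 2.88 and 2.87 exon CPM per kilobase in smn2 at 4 h and 9.76 and 5.81 in smn2 at 0 h, while MYB51 had 102 and 87.1 at 4 h and 5.32 and 9.63 at 0 h. At 0 h in smn2 the 2 genes overlapped, with MYB34 the higher in run 910 and MYB51 the higher in run 918. In WT, MYB34 had 2.47 and 3.22 at 4 h and 7.32 and 4.08 at 0 h, and MYB51 had 82.9 and 52.1 at 4 h and 8.60 and 18.4 at 0 h, above MYB34 in every WT library. MYB122 was the lowest of the 10 genes in both 0 h groups.

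The second question was whether smn2 changed the pathway at a given time. At 4 h none of the 10 genes differed between smn2 and WT by edgeR, where 0.280% of all loci were higher and 0.0305% lower in smn2 (0.310% in all, on 55 and 6 loci, which were 108 and 8 with the run as a replicate block). Of the 10 genes 0 had an unadjusted p under 0.05, and DESeq2 called 0. The 10 log2 differences at 4 h ran from -0.16 for PEN2 to 0.78 for CYP81F2, with a median of 0.19 beside -0.01 over all loci. MYB51, MYB122, CYP81F2 and IGMT1 were higher in both smn2 libraries than in both WT libraries, at log2 differences of 0.48 ± 0.38, 0.70 ± 0.39, 0.78 ± 0.48 and 0.63 ± 0.36. How many of all loci were separated like this was not counted, so it is a description only. Within runs, MYB122 and IGMT1 differed by 0.01 each in run 910 and by 1.54 and 1.28 in run 918, while CYP81F2 differed by 0.46 and 1.14.

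At 0 h none of the 10 genes was called by edgeR either, where 0.733% of all loci were higher and 0.270% lower in smn2 (1.0% in all, on 144 and 53 loci, which were 224 and 89 with the run as a block). Their median log2 difference was -0.50 beside -0.02 over all loci. CYP81F2, at -1.58 ± 0.54 (unadjusted p = 0.0160, edgeR adjusted p = 0.318), and IGMT1, at -1.26 ± 0.41 (unadjusted p = 0.0127, adjusted p = 0.287), were the 2 of the 10 with an unadjusted p under 0.05. Both smn2 libraries lay below both WT libraries for CYP81F2, IGMT1, MYB122 and CYP83B1, and above them for SUR1 and UGT74B1. The share of all loci separated in this way was not counted, so this is a description only. Within runs the CYP81F2 difference was -1.78 in run 910 and -1.44 in run 918. DESeq2 called 1 of the 10 genes, CYP81F2 (adjusted p = 0.0411). Without the filter on low counts edgeR called 3, CYP81F2 (adjusted p = 4.52e-06), IGMT1 (0.000334) and MYB51 (0.0344), all lower in smn2. Their log2 differences hardly moved, that of CYP81F2 from -1.58 to -1.61. Over all loci that setting called 435 higher and 438 lower in smn2, against 144 and 53 with the filter. Why the adjusted p fell was not tested.

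**Figure D3:**
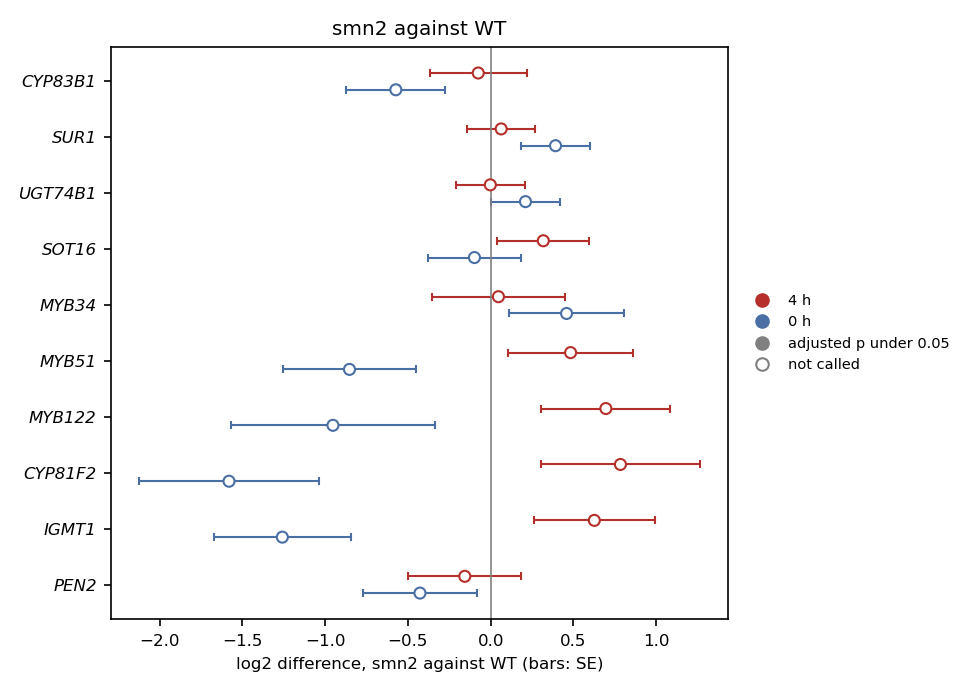
Log2 difference of smn2 against WT for the 10 genes, at 4 h in red above 0 h in blue, with bars of 1 SE; every point is open because none passed an edgeR adjusted p of 0.05. MYB51, MYB122, CYP81F2 and IGMT1 lie right of 0 at 4 h and left of 0 at 0 h, with CYP81F2 farthest at both times, at 0.78 and -1.58, followed at 4 h by MYB122 (0.70) and at 0 h by IGMT1 (-1.26).

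The difference of the 4 h changes, smn2 minus WT, was tested directly as an interaction. By edgeR it was called at 0 of the 10 genes and at 0 of all 19649 loci (0%), with 847 loci (4.31%) at an unadjusted p under 0.05; DESeq2 called 26 loci and none of the 10 genes. Of the 10 genes 4 had an unadjusted p under 0.05, each with the larger rise in smn2. The difference was 2.36 ± 0.72 for CYP81F2 (unadjusted p = 0.00895, edgeR adjusted p = 0.899) and 1.88 ± 0.55 for IGMT1 (unadjusted p = 0.00686, adjusted p = 0.853). It was 1.34 ± 0.55 for MYB51 (unadjusted p = 0.0363) and 1.65 ± 0.73 for MYB122 (unadjusted p = 0.0481), both with an adjusted p of 0.99999. Within run 910 the difference was 2.24 for CYP81F2, 0.76 for IGMT1, 0.96 for MYB51 and 0.85 for MYB122, and within run 918 it was 2.59, 2.87, 1.67 and 2.66 in the same order. The core enzymes and PEN2 had differences between -0.33 for SUR1 and 0.50 for CYP83B1. Without the filter on low counts edgeR called the difference at 3 of the 10 genes, CYP81F2 (adjusted p = 1.51e-06), IGMT1 (0.000179) and MYB51 (0.0350). Their values hardly moved, that of CYP81F2 from 2.36 to 2.39, and over all loci that setting called 148 higher and 37 lower. Why the adjusted p fell was not tested, and these calls were absent from the main fit.

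The replicates within a group had a pattern of their own. At 0 h, 7 of the 10 genes were higher in run 918 than in run 910 in both genotypes, namely CYP83B1, SOT16, MYB51, MYB122, CYP81F2, IGMT1 and PEN2, and MYB34 was lower in run 918 in both. At 4 h in WT, 9 of the 10 genes were higher in run 910 and MYB34 was lower there. At 4 h in smn2, 6 were higher in run 910, and UGT74B1, MYB122, CYP81F2 and IGMT1 were higher in run 918. The 4 h libraries of run 918 were those with the low LHCB1.1 level; without both of them, all 9 rises were still called in smn2 and 8 of 9 in WT. The exception was PEN2, with a log2 of 1.73 in WT that was not called (adjusted p = 0.0638), and MYB34, with -1.38, lost its call in smn2 (adjusted p = 0.169). Where libraries are left out, a group of 1 library is assumed to vary like the other groups, which supply the spread.

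Few reads of these genes fell in introns, a readout of interest because HEN2 acts on nuclear RNA. Introns took 0.495% and 0.380% of the reads of the 10 genes in smn2 at 4 h and 0.888% and 0.896% in smn2 at 0 h, against 0.497% and 0.468% in WT at 4 h and 0.637% and 0.580% in WT at 0 h. The smn2 0 h libraries were the highest, on 34 and 25 intron reads, and the genotypes overlapped at 4 h. Of the 25 intron reads in the smn2 0 h library of run 918, 12 were from SUR1. The share of the 10 genes together also depends on which genes supply the reads, and that mix differed between the times. Over all loci with exons the intron share was 2.43% to 2.74% in the smn2 libraries and 1.97% to 2.15% in the WT libraries. SOT16 is a gene of 1 exon and had none, and PEN2 had most, 211 intron reads over the 8 libraries. None of the 10 genes overlaps another locus of the table, and apart from IGMT1 and the scarce MYB34 and MYB122 99.47% or more of the reads of each were placed uniquely in every library.

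The 9 rising genes followed a common course over the 8 libraries. The log2 CPM of each had a Pearson r of 0.943 to 0.996 with the mean of the other 9 genes, highest for SOT16 and lowest for PEN2, while MYB34 had -0.934. These 8 points share 2 times and 2 runs, and no test was made of them. The 5 loci outside the pathway lists with the highest r with the mean of the 10 genes were GSTF6, a glutathione transferase (0.999), AT3G14840 (0.999), ASA1, an anthranilate synthase subunit (0.998), CCOAMT (0.996) and TSA1, a tryptophan synthase subunit (0.996). Of all loci tested, 8.9% had an r above 0.9, so such values are common here.

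Other genes of glucosinolate metabolism were read from a list of 52, of which 51 were tested. That list too was chosen with earlier results of these data known. Of these 17 rose and 11 fell in smn2, with a median log2 change of 0.21, and 17 rose and 10 fell in WT, with a median of 0.49, where 21.5% of all loci were called in either direction in smn2 and 16.7% in WT. Of the 17 rises, 13 in smn2 and 9 in WT kept their call when each of the 8 libraries was left out in turn, and of the falls 1 of 11 in smn2 and 2 of 10 in WT. Leaving out library 910 of smn2 at 4 h left 1 fall in smn2, leaving out library 918 of that group left 5 and leaving out library 918 of smn2 at 0 h left 7. In WT, 3 falls were left without library 910 at 4 h, 4 without library 918 at 4 h and 5 without library 910 at 0 h, and the last setting also left 9 rises. Without both 4 h libraries of run 918 the falls numbered 3 in smn2 and 2 in WT, and the rises 10 in WT. None of the 51 differed between smn2 and WT at 4 h or at 0 h, or in its 4 h change, by edgeR; 4, 9 and 8 of them had an unadjusted p under 0.05, and DESeq2 called 1, 3 and 0. With the run as a replicate block 18 rose and 11 fell in smn2 and 21 rose and 13 fell in WT. At 0 h the block called SOT18 higher in smn2 (log2 1.21, adjusted p = 0.0287) and BGLU21 lower (-1.34, adjusted p = 0.0230), and DESeq2 called both of these (0.0241 and 0.00976) and UGT74C1 (0.0312).

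Both enzymes before CYP83B1 rose. CYP79B2, which with CYP79B3 makes indole-3-acetaldoxime from tryptophan, had 442 and 345 CPM in 4 h smn2 seedlings and 25.6 and 29.9 CPM in 0 h smn2 seedlings, against 426 and 184 CPM in 4 h WT seedlings and 16.2 and 25.7 CPM in 0 h WT seedlings. Its log2 change was 3.83 ± 0.42 in smn2 (edgeR adjusted p = 0.000341) and 3.87 ± 0.42 in WT (adjusted p = 0.000511), and that of CYP79B3 was 1.83 ± 0.35 (0.00544) and 1.82 ± 0.34 (0.00689). CYP79B3 lost its WT call when library 910 of WT at 0 h was left out (adjusted p = 0.0505).

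All 5 genes of the sulfate donor and of glutathione supply rose in both genotypes. APK2, an APS kinase, rose by a log2 of 3.64 ± 0.32 in smn2 (edgeR adjusted p = 0.000131) and 3.60 ± 0.32 in WT (adjusted p = 0.000251). APS3, an ATP sulfurylase, rose by 2.91 ± 0.26 in smn2 (adjusted p = 0.000132) and 1.40 ± 0.25 in WT (adjusted p = 0.00503), and its WT call was lost without WT 0 h 910 (adjusted p = 0.0523). APS3 was higher in smn2 than in WT at 4 h by a log2 of 1.36 ± 0.24, not called (adjusted p = 0.0685), but called with the sequencing run as a replicate block (adjusted p = 0.0480) and by DESeq2 (adjusted p = 0.00119); its interaction, 1.51 ± 0.35, was not called (adjusted p = 0.701). APK1, APS1 and GSH1 rose by log2 values between 0.85 and 1.55; APS1 lost its call in WT without any 1 of the 4 WT libraries (adjusted p up to 0.175), and GSH1 lost it without library 918 at 4 h or 910 at 0 h in smn2 (up to 0.0821) and without library 910 at either time in WT (up to 0.102).

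Among 8 partners in the core steps, 4 rose in smn2 and 4 rose and 1 fell in WT. The fall was that of GGP3 (log2 -0.73, edgeR adjusted p = 0.0476), which overlaps another locus. The GGP3 call was lost whichever of the 8 libraries was left out, and with DESeq2 (adjusted p = 0.0820). With the run as a replicate block the glutathione transferases GSTF9 (log2 1.48, adjusted p = 0.0214) and GSTU13 (0.94, adjusted p = 0.0186) and the sulfotransferase SOT18 (0.98, adjusted p = 0.0125) were also called higher at 4 h in WT. SOT17, a sulfotransferase related to SOT16, rose by a log2 of 3.03 ± 0.34 in smn2 (edgeR adjusted p = 0.000373) and 3.53 ± 0.35 in WT (adjusted p = 0.000326). The glutathione transferase GSTF10 and the peptidase GGP1 rose in both genotypes, by 2.55 ± 0.26 and 2.06 ± 0.22 in smn2 and 1.60 ± 0.26 and 1.73 ± 0.22 in WT. UGT74C1, the glucosyltransferase of aliphatic glucosinolates, had 24.0 and 33.6 CPM in 4 h smn2 seedlings and 29.1 and 20.3 CPM in 0 h smn2 seedlings, against 23.1 and 26.9 CPM in 4 h WT seedlings and 11.3 and 11.6 CPM in 0 h WT seedlings. The genotypes overlapped at 4 h, and both smn2 libraries were above both WT libraries at 0 h (log2 1.12 ± 0.25, edgeR adjusted p = 0.0910, not called). Its 4 h change was 0.21 ± 0.25 in smn2 (adjusted p = 0.591), not called, and it rose by a log2 of 1.12 ± 0.25 in WT (adjusted p = 0.0149); it overlaps another locus, and its WT call was lost when library 918 at 4 h or either library at 0 h was left out (adjusted p up to 0.0914).

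Of the 7 other regulators tested, the DOF factor OBP2 rose in both genotypes, by a log2 of 0.92 ± 0.24 in smn2 and 1.31 ± 0.24 in WT (edgeR adjusted p = 0.0225 and 0.00571). OBP2 lost its smn2 call without any 1 of the 4 smn2 libraries (adjusted p up to 0.102) and its WT call without WT 0 h 910 (0.0599). MYC2, MYC3 and MYC4, the bHLH partners of the MYB factors, were called in neither genotype, with values between -0.30 and 0.22. HAG1, also known as MYB28, a regulator of aliphatic glucosinolates, had 0.17 ± 0.20 in smn2, not called, and rose by 1.09 ± 0.21 in WT (edgeR adjusted p = 0.00678). At 4 h HAG1 had 30.6 and 34.9 CPM in smn2 and 31.0 and 35.1 CPM in WT. At 0 h it had 32.7 and 25.3 CPM in smn2 and 16.2 and 14.7 CPM in WT. IQD1 fell by 1.68 ± 0.38 on the log2 scale in smn2 (adjusted p = 0.0136), on 18 and 9 reads at 4 h, and had 0.10 ± 0.33 in WT. The fall of IQD1 was not called without either smn2 4 h library (adjusted p up to 0.0860).

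Side chain genes went both ways. CYP81F4 and IGMT5, which make the 1-methoxy rather than the 4-methoxy compound, fell in both genotypes. CYP81F4 had 19.2 and 18.4 CPM in 4 h smn2 seedlings and 72.0 and 127 CPM in 0 h smn2 seedlings, against 20.1 and 28.7 CPM in 4 h WT seedlings and 54.0 and 62.3 CPM in 0 h WT seedlings, and its log2 change was -2.40 ± 0.30 in smn2 (edgeR adjusted p = 0.000624) and -1.25 ± 0.29 in WT (adjusted p = 0.0166), a WT call lost without WT 4 h 910 (0.116) or WT 0 h 918 (0.0665). It overlaps another locus and 3.38% to 7.34% of its reads were placed uniquely; with those alone the WT fall was not called (-0.92 ± 0.49, adjusted p = 0.236), while the smn2 fall was (-2.39 ± 0.48, adjusted p = 0.00651). IGMT5 fell by 1.32 ± 0.32 in smn2 (adjusted p = 0.0182) and 1.33 ± 0.32 in WT (adjusted p = 0.0216), and also overlaps another locus. It lost its smn2 call without library 910 at 4 h or 918 at 0 h (adjusted p up to 0.138) and its WT call without either library at 4 h or library 918 at 0 h (up to 0.138).

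Breakdown genes mostly did not follow PEN2. Of 18, 2 rose and 7 fell in smn2, and 3 rose and 6 fell in WT. NIT4, counted here with the other nitrilases though it acts on beta-cyanoalanine, is 1 of the rises in each genotype. It rose by a log2 of 3.39 ± 0.38 in smn2 (edgeR adjusted p = 0.000387) and 3.82 ± 0.39 in WT (adjusted p = 0.000372). PCS1, a phytochelatin synthase also known to act on products of PEN2, rose by 1.56 ± 0.30 in smn2 (adjusted p = 0.00576) and 1.001 ± 0.292 in WT (adjusted p = 0.0441), a WT call lost when either smn2 4 h library, either WT 4 h library or WT 0 h 910 was left out (adjusted p up to 0.257). The β-glucosidases of ER bodies PYK10, BGLU18 and BGLU22 and the nitrile specifiers NSP1 and NSP4 fell in both genotypes, PYK10 by 1.21 ± 0.34 in smn2 (adjusted p = 0.0304) and 1.64 ± 0.34 in WT (adjusted p = 0.0108). Leaving out either 4 h library or library 918 at 0 h ended the PYK10 call in smn2 (adjusted p up to 0.209), as did either 4 h library or library 910 at 0 h in WT (up to 0.0718). BGLU18, BGLU22, NSP1 and NSP4 each lost the smn2 call without smn2 4 h 910 (adjusted p between 0.0815 and 0.165). In smn2 BGLU18 also lost it without smn2 4 h 918 or smn2 0 h 910, and BGLU22 and NSP4 without smn2 0 h 918. In WT, BGLU18 lost its call without WT 4 h 918 or WT 0 h 910 and NSP4 without WT 4 h 910, while BGLU22 and NSP1 kept theirs. NSP1 and NSP4 share reads, with 59.3% to 74.4% placed uniquely. PYK10 overlaps another locus. BGLU21, a further β-glucosidase of this family, fell by 1.47 ± 0.31 in WT (adjusted p = 0.0124), a call lost without either WT 4 h library or WT 0 h 910 (up to 0.0848), and had -0.61 ± 0.32 in smn2 (0.204), not called. NSP2, NSP3 and NSP5 were called in neither genotype, at -0.12 ± 0.79, -2.34 ± 0.87 and 0.10 ± 0.30 in smn2 and 1.83 ± 0.78, -2.12 ± 0.77 and -0.67 ± 0.30 in WT, NSP2 on 1 to 12 reads a library and NSP3 on 0 to 47. The epithiospecifier ESP fell in smn2, at -1.08 ± 0.23 (edgeR adjusted p = 0.00981), a call lost without either smn2 4 h library. The nitrilase NIT1 also fell in smn2, at -1.12 ± 0.26 (adjusted p = 0.0151), a call lost without either smn2 4 h library or smn2 0 h 910. In WT neither was called by the main fit (adjusted p = 0.0828 and 0.0569). The block called falls of both in WT, ESP at -0.65 (adjusted p = 0.0425) and NIT1 at -0.84 (adjusted p = 0.0176). The classical myrosinases TGG1 and TGG2 were not called, at -0.40 ± 0.25 and -1.06 ± 0.72 in smn2 and -0.15 ± 0.25 and 0.74 ± 0.64 in WT. TGG2 had 3 to 11 reads a library, close to the floor of 3 counts, so that a change in it could be missed. PYK10 is known mainly from roots, and the summed root markers given above were lower at 4 h than at 0 h in both smn2 libraries and overlapped between the times in WT. PHT1;1 was the largest part of that sum in every library, and the markers did not move together. In WT, NRT2.1 was higher at 4 h (14.9 and 17.7 against 2.85 and 5.43 CPM), while CASP1, COBL9 and EXP7 were lower. In smn2, CASP1, EXP7 and NRT2.1 overlapped between the times. The part of the root markers in these falls was not tested.

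Of the 4 transporters, PEN3, an ABC transporter of the plasma membrane that acts with PEN2, had 4727 and 4841 CPM in 4 h smn2 seedlings and 695 and 1526 CPM in 0 h smn2 seedlings, against 4927 and 3505 CPM in 4 h WT seedlings and 1067 and 2117 CPM in 0 h WT seedlings. The times did not overlap in either genotype. PEN3 rose by a log2 of 2.11 ± 0.48 in smn2 (edgeR adjusted p = 0.0129) and had 1.41 ± 0.47 in WT (adjusted p = 0.0698), not called, though called with the run as a replicate block (0.0271) and by DESeq2 (0.00278). The smn2 call was lost when either 4 h library or library 910 at 0 h was left out (adjusted p up to 0.0590). The importer GTR3 fell by 1.26 ± 0.28 in smn2 (adjusted p = 0.0111) and 1.09 ± 0.27 in WT (adjusted p = 0.0250), and overlaps 2 other loci. With the block the importer GTR1, which overlaps another locus, was also called lower at 4 h in WT (-0.71, adjusted p = 0.0404). GTR3 lost its smn2 call without either 4 h library or library 918 at 0 h. The WT call of GTR3 was lost without either 4 h library or library 910 at 0 h.

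**Figure D4:**
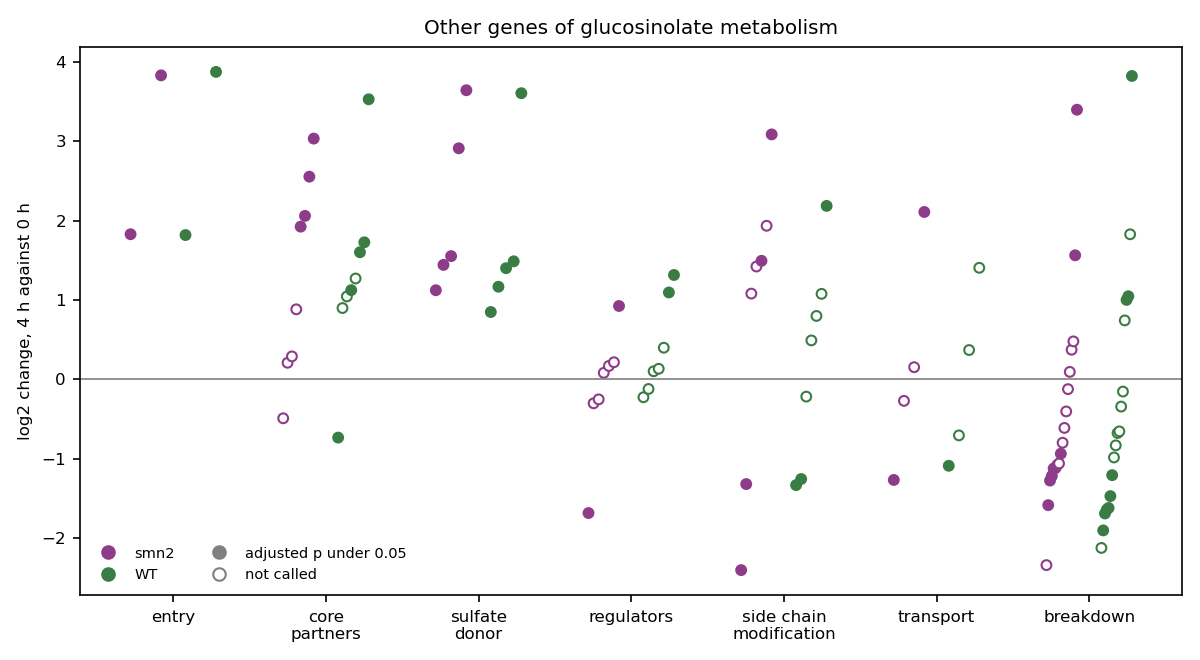
Log2 change at 4 h against 0 h for 51 other genes of glucosinolate metabolism, grouped by role along the x axis, smn2 in purple left of WT in green; filled points passed an edgeR adjusted p of 0.05. The entry and sulfate donor groups lie wholly above 0 and filled, up to 3.83 and 3.64 in smn2 and 3.87 and 3.60 in WT, while most breakdown genes lie below 0.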

How the data were processed

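Poly(A) RNA of whole seedlings was sequenced on an Ion Proton in 2 runs, one for the libraries 910 and one for the libraries 918, per the file headers. The deposited values used here are the authors' raw counts per locus: total gene reads, total exon and intron reads, and uniquely placed gene reads, not normalized, per the file headers. The other measures deposited by the authors in the same table were not used. The submitters' processing notes name the build TAIR10; which aligner and annotation release were used, and if strand was counted, is not given in the sources used here, so reads of overlapping or antisense loci cannot be told apart. All 28009 loci matched to the RefSeq table (TAIR10.1) overlap their counterpart there, and 14056 share a start or end exactly.

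Counts were tested with the edgeR 4.0.16 quasi-likelihood test in R 4.3.3 (TMM, filterByExpr, 19649 of 28642 loci kept). The fit held all 8 libraries, 1 coefficient for each group and 4 residual degrees of freedom, and p-values were adjusted by Benjamini-Hochberg over all loci with a threshold of 0.05. SE is the absolute log2 value divided by the square root of F. The common biological coefficient of variation was 0.229. Libraries had reads at 22531 to 24808 loci, ribosomal RNA took 26.7% to 35.8% of gene reads in run 910 and 40.3% to 44.4% in run 918, and 3 counts correspond to 0.161 to 0.488 CPM, a floor that covers counting error only. Code was tested on simulated data.

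The replicate numbers pair samples by sequencing run, per the file headers; the correlation of deviations between same-numbered libraries was 0.135, 0.129, 0.134, 0.0477, 0.452 and 0.0982 for the 6 pairs of groups. Alternatives were DESeq2 1.42.0, its size factors, no filter, the run as a replicate block, unique reads, exon reads, only the groups compared, a fold of 1.5 and each library left out. The genes and lists were chosen with earlier results of these data known. Named genes are the 10 genes, HEN2, any gene of the pathway lists, and the 5 loci most correlated with the mean of the 10 genes.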

Additional observations from a re-analysis of the deposited data

How the results depend on the processing

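For the 10 genes, all 9 rises in smn2 and all 9 in WT were called under every setting other than those that left out single libraries or run 918 at 4 h, except that PEN2 in WT was not called against a fold of 1.5 (adjusted p = 0.0842). The count of falls in smn2, 1 gene (MYB34), was 0 against a fold of 1.5 and 0 without both 4 h libraries of run 918, a setting added after seeing the data. The count of falls in WT, 0 genes, was 1 without the filter on low counts (MYB34, adjusted p = 0.0229). The count of genes lower in smn2 than in WT at 0 h, 0 genes, was 1 with DESeq2 and 3 without the filter, and the count with a larger 4 h change in smn2, 0 genes, was 3 without the filter; the cause was not tested. With each library left out in turn, rises numbered 8 to 9 and falls 0 to 1 in smn2, and rises 7 to 9 and falls 0 in WT, while genotype differences and interactions numbered 0. With the sequencing run as a replicate block, 9 genes rose and 1 fell in smn2, 9 rose and 0 fell in WT, and 0 differed between genotypes or in their 4 h change, so the block changed no call of the 10 genes. No called value changed sign under any of these settings. Of 839 gene values under alternatives, 820 kept their direction where called and their side of the threshold, 11 lost and 8 gained a call. Depth limits MYB122 and MYB34, which had as few as 3 and 24 reads in a library. MYB122 could not be fitted with the 0 h groups alone, where it failed the filter. Among the 51 other pathway genes, a fold of 1.5 left 3 of 11 falls in smn2 and 11 of 17 rises and 5 of 10 falls in WT. Their genotype differences, 0 by edgeR, numbered 1 higher and 0 lower at 4 h and 1 and 1 at 0 h with the replicate block, 1 higher at 4 h and 2 higher and 1 lower at 0 h with DESeq2, 2 and 1 at 4 h and 3 and 3 at 0 h without the filter, and 1 higher at 4 h with only the groups compared; 1 interaction was called without the filter. Over all loci, higher and lower calls in smn2 at 4 h, 2478 and 1745, were 1388 and 680 against a fold of 1.5 and 1191 and 427 without run 918 at 4 h; those in WT, 1989 and 1289, were 993 and 544, and 774 and 286, with 2117 lower without the filter. Genotype calls at 4 h, 55 and 6, were 140 and 19 with DESeq2, 339 and 141 without the filter, 23 and 3 against a fold of 1.5, 3 and 0 without run 918 at 4 h, and 81 and 10 with only the groups compared. Those at 0 h, 144 and 53, were 241 and 122, 435 and 438, 69 and 17, 23 and 1, and 16 and 0 under the same settings in that order. Interactions, 0, were 23 and 3 with DESeq2 and 148 and 37 without the filter. With single libraries left out, calls over all loci ranged from 1469 to 2370 higher and 600 to 1649 lower in smn2, 884 to 2143 and 468 to 1463 in WT, 6 to 69 and 0 to 9 between genotypes at 4 h, and 17 to 107 and 3 to 76 at 0 h.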
